A study of Mus musculus with 4 samples.

Results

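The 10 genes described here are Igf2r, Grb10, Gnas, Plagl1, Peg3, Mest, Impact, Peg10, Sgce and Nnat, imprinted genes whose loci are scattered over 7 mouse chromosomes and lie outside the imprinted regions of chromosome 12, Snrpn and H19. They were chosen by symbol, and all 10 have a row among the 37310 genes of the deposited table. mRNA was sequenced from mESCs (mouse embryonic stem cells) of the JM8 line, which derives from the inbred C57BL6/N strain, as a pair of wild-type and a pair of Bmal1 -/- libraries, named here by their labels. The cells of each grew in 2i + LIF medium, which holds 1 µM PD0325901, an inhibitor of Mek, and 3 µM CHIR99021, an inhibitor of Gsk3, beside the cytokine LIF. Bmal1 is the core transcription factor of the circadian clock and had been mutated with CRISPR/Cas9, which left a frameshift on each allele. The wild-type cells are the parental line and the mutant is a clonal line derived from it, so that a difference between the lines other than Bmal1 cannot be told apart from the genotype. The strain is inbred and the values sum both alleles, so that nothing here says from which parental copy a transcript came.

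An imprinted gene is expressed mainly from the copy inherited from one parent. The choice is written as DNA methylation of a control region in the egg or the sperm, and it is kept through the demethylation of the early embryo by zinc finger proteins such as Zfp57, which bind the methylated region and recruit Trim28. Many of these genes act on growth and metabolism: Igf2r and Grb10 are expressed from the maternal copy in most tissues and restrain growth, whereas Peg3, Mest, Plagl1, Impact, Peg10, Sgce and Nnat are expressed from the paternal copy. Gnas gives several transcripts with different imprints. In embryonic stem cells some of these loci, that of Igf2r among them, are expressed from both copies, and the imprint of Igf2r acts on its expression only upon differentiation.

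Reads assigned to genes came to between 21504265 and 23329034 per library, and 3 reads, the floor used here for a gene counted as detected, corresponded to a normalized value of between 2.82 and 3.19. The targeted gene, listed as Arntl, had normalized read counts of 678 and 733 in wild-type and of 556 and 590 in the libraries labelled Bmal1 -/-, so that its mRNA was present in all 4 libraries and does not identify the genotype. Among 14 pluripotency markers, all were above the floor in each library, and Pou5f1 stood between 26480 and 29160 normalized reads. Of the 14, 8 rose and 5 fell, where 24.0% of all genes tested were higher and 28.6% lower at the same threshold. Those that rose were led by Fbxo15 (0.84 as log2 fold change), Tcfcp2l1 (0.40), Tbx3 (0.36) and Prdm14 (0.29), and those that fell by Sox2 (-0.17), Zfp42 (-0.14) and Esrrb (-0.14). The 10 neural markers summed to 3467 and 3186 in wild-type and to 1673 and 1524 in Bmal1 -/-, of which Tubb3 made up most, with Dcx and Fabp7 at 0 in every library. Pax6, Mtap2 and Tubb3 fell by 1.71, 1.44 and 1.22 on the log2 scale. Olig2, at 378 and 386 in wild-type and at 369 and 316 in Bmal1 -/-, did not pass (adjusted p = 0.14 in limma). The 10 trophoblast markers summed to 1567 and 1572 in wild-type and to 694 and 677 in Bmal1 -/-, of which Tcfap2c made up most. Of the 4 tested, Tcfap2c (-1.36) and Cdx2 (-0.74) fell and Ascl2 rose (0.58), with Tpbpa and Prl3d1 at 0 in every library. The 10 primitive endoderm markers summed to 766 and 746 in wild-type and to 1161 and 1097 in Bmal1 -/-, of which Lama1 and Col4a1 made up most. Of the 5 tested, Col4a1 (1.44), Sox17 (1.27), Gata4 (0.55) and Lama1 (0.31) rose and Sox7 fell (-2.41). Gata6 and Foxa2, at values of at most 6.37 and 6.32, were too low to be tested, and none of the 10 was at 0 in every library. The 10 fibroblast markers summed to between 98.8 and 134 in all libraries, with Dcn and Lum at 0. Whether these marker differences bear on the imprinted genes was not tested. In a bulk sample, fewer cells of a type and less RNA per cell cannot be told apart.

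All 10 imprinted genes passed the filter of a mean normalized read count of at least 10. Of these, 8 had an adjusted p-value under 0.05 in limma with Benjamini-Hochberg adjustment over the 14510 genes tested, in a series in which 52.6% of the genes tested passed the same threshold. Igf2r, Grb10, Gnas and Plagl1 were higher in the libraries labelled Bmal1 -/- (4 of 10, against 24.0% of all genes tested), and Peg3, Mest, Impact and Peg10 were lower (4 of 10, against 28.6%). Sgce and Nnat did not pass. Differences are given as log2 fold changes (log2FC, Bmal1 -/- minus wild-type) with their standard error (SE) and the adjusted p-value from limma. With equal library totals in place of the authors' scaling, 56.8% of all genes called were higher, against 45.7% with that scaling, and each of the 8 genes kept its direction. None of the 10 was past 2-fold among those under this threshold, a size reached by 7.21% of all genes tested, and the count was also 0 at an unadjusted p-value under 0.05, in edgeR and in DESeq2. The groups did not overlap for 9 of the 10 genes, against 76.0% of all genes tested. The median log2FC of the 10 genes was -0.14, beside -0.03 over all genes tested, and their median absolute log2FC was 0.41, beside 0.24. Both genes with a maternal bias in most tissues rose, while of the 7 paternally expressed genes 1 rose, 4 fell and 2 did not pass the threshold. Over all genes tested 24.0% were higher and 28.6% lower. These groups are small, and whether the direction of change relates to the parental copy was not tested.

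**Figure D1:**
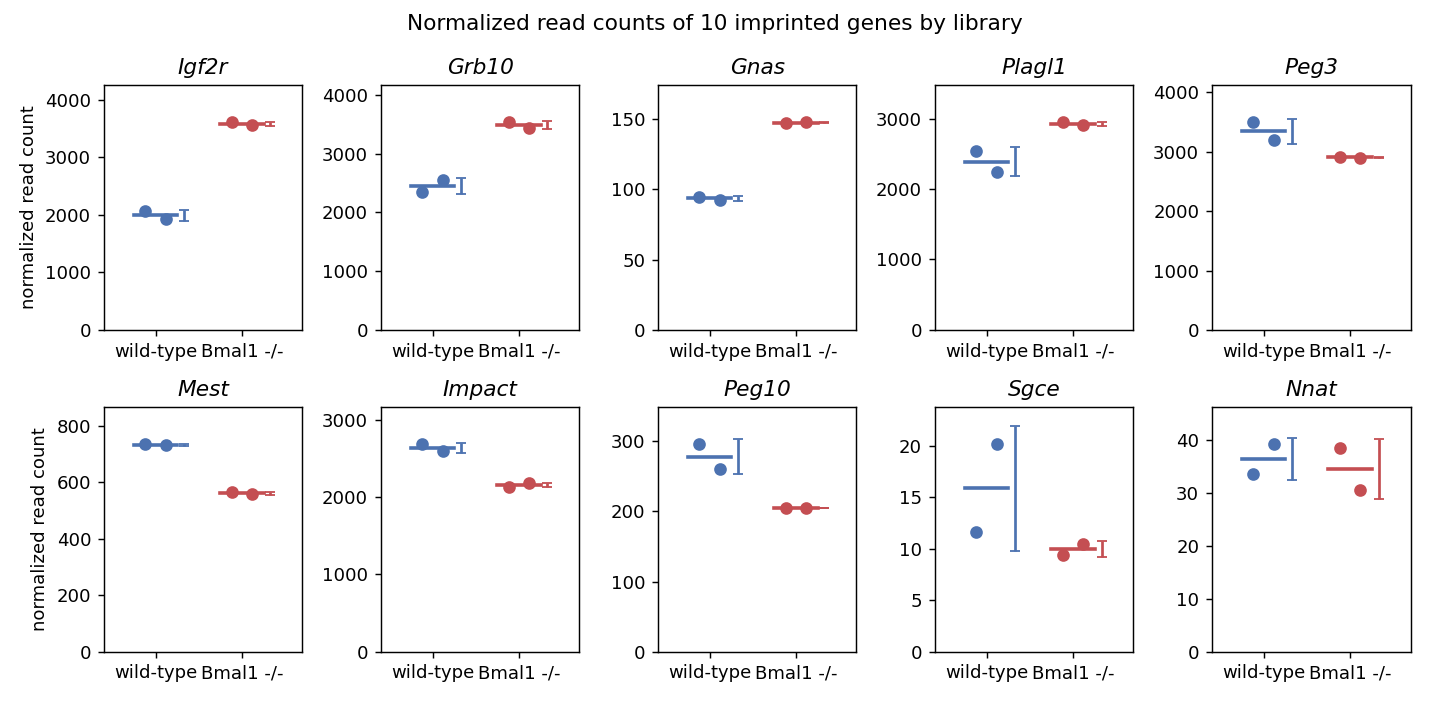
Normalized read counts (y axis, linear and from 0, with its own scale in each panel) of the 10 imprinted genes in the wild-type (blue) and Bmal1 -/- (red) libraries. Points are libraries, horizontal lines are means and the bars beside them show the SD (n = 2). Only for Nnat do the points of the groups overlap.

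The largest difference was that of Igf2r, the receptor for Igf2 and for mannose 6-phosphate, which takes Igf2 from the cell surface to the lysosome for degradation. In mm9 it occupies chromosome 17 from 12875272 to 12962530 on the minus strand. Its normalized read counts were 2058.5 and 1927 in wild-type and 3606 and 3552 in Bmal1 -/-, with means of 1993 ± 93.0 and 3579 ± 38.3 (SD, n = 2). Both Bmal1 -/- libraries were far above both wild-type libraries, by more than the spread between replicates. The log2FC was 0.85 (SE 0.05, adjusted p = 6e-12), a mean of 180% of wild-type, which is at percentile 92.4 of the log2FCs of all genes tested. The log2FC ranged from 0.80 to 0.91 over all alternative settings. Its adjusted p-value in limma was 0.0037 without the filter on low values and 0.0081 when the variance was not fitted as a trend over the mean. The RefSeq promoter window of Igf2r is shown because it holds the E-box CACGTG, the motif bound by Bmal1 with its partner Clock and by other factors such as Myc and Usf1. The 250 bases before the start (GRCm38.p6, chr17:12769707-12769956, minus strand) carry the motif at positions -48 and -7, in capitals.

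Igf2r promoter: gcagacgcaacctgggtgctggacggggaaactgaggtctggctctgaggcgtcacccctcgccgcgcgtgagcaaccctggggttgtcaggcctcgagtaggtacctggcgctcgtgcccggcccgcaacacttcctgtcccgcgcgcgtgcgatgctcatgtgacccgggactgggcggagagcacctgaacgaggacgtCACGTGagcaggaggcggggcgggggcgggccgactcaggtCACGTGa

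Grb10, an adaptor that binds the insulin and Igf1 receptors and dampens their signal, lies on chromosome 11 from 11830511 to 11938686 on the minus strand. Normalized read counts of Grb10 were 2350 and 2544 in wild-type and 3535 and 3442 in Bmal1 -/-, with means of 2447 ± 137 and 3489 ± 65.4 (SD, n = 2). The groups were well apart, and the log2FC was 0.51 (SE 0.05, adjusted p = 1.9e-08). Neither of the 2 RefSeq promoter windows of Grb10 holds an E-box.

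The pathway around both genes was described with 25 genes of the Igf and insulin axis, of which 18 were tested. Of the 18, 7 rose and 3 fell, against 24.0% higher and 28.6% lower over all genes tested, with a median log2FC of 0.16. The 55.6% called in either direction were close to the share over all genes. Igf1r, the receptor for Igf1, had normalized read counts of 154 and 117 in wild-type and of 320 and 285 in Bmal1 -/-, with a log2FC of 1.17 (adjusted p = 1.7e-07). Insr, the insulin receptor, rose as well (0.65), and so did Igf2, the growth factor that Igf2r binds, from 35.8 and 40.4 to 63.9 and 64.8 (0.74, adjusted p = 0.0042). Grb7, the relative of Grb10, went the other way, from 466 and 463 to 177 and 149 (-1.51), beyond 2-fold. Grb14, the other relative, was at 18.96 and 31.87 in wild-type and at 31.94 and 21.0 in Bmal1 -/-, with overlapping groups. Among the binding proteins that hold Igfs outside the cell, Igfbp2, the one with the highest values, fell from 4609 and 4834 to 4017 and 3803 (-0.27, adjusted p = 2.7e-05), while Igfbp7 rose (0.83) and Igfbp4 fell (-0.82), both at values under 50. M6pr, the small mannose 6-phosphate receptor that does not bind Igf2, had a log2FC of -0.01 (adjusted p = 0.79) at values between 4474 and 4632, while Igf2r rose.

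Gnas encodes the alpha subunit of the stimulatory G protein, which couples hormone receptors to adenylyl cyclase, along with larger and neuroendocrine variants from alternative first exons. It lies on chromosome 2 from 174109821 to 174172245 on the plus strand. In normalized read counts it stood at 94.8 and 92.4 in wild-type and 147 and 148 in Bmal1 -/-, a log2FC of 0.65 (SE 0.14, adjusted p = 0.00041), with 158% of the wild-type mean. The replicates lay close to each other and the groups were clearly apart. The merged exons of Gnas span 11186 bases, of which 8.83% are shared with exons of Nespas and 13.1% with exons of AF085738, both annotated on the opposite strand. Nespas itself had values between 121 and 140 and a log2FC of -0.05 (adjusted p = 0.78), and AF085738 between 0 and 2.82. Libraries were made with a stranded kit, but whether the counting used the strand is not given in the sources used here, so that reads of opposite genes with shared exons may not be told apart.

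Of 33 partners and effectors of the Gs protein, 28 were tested, 10 rose and 4 fell, with a median log2FC of 0.06. The 14 called in either direction are a share near that over all genes tested, of which 24.0% were higher and 28.6% lower. Among the adenylyl cyclases, which make cAMP, Adcy1 rose from 151 and 139 to 250 and 243 (0.76), Adcy3 from 222 and 208 to 337 and 326 (0.62), and Adcy9 from 233 and 219 to 372 and 318 (0.60). Adcy2 passed 2-fold at low values, from 6.32 and 5.31 to 15.03 and 17.16 (1.33, adjusted p = 0.012). Pde3b, a phosphodiesterase that breaks cAMP down, rose too (0.60). Of the listed beta and gamma subunits, Gng5 fell from 1395 and 1518 to 957 and 1007 (-0.57, adjusted p = 8e-08). Gnb5 (-0.49), Gnb2 (-0.31) and Gnb1 (-0.14) fell as well, whereas Gng12 (0.31, adjusted p = 0.00066) and Gnb4 (0.20, adjusted p = 0.048) rose. The catalytic subunit of protein kinase A, Prkaca, stood between 2075 and 2151 in all 4 libraries (log2FC 0.02, adjusted p = 0.68).

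Plagl1 and Peg3 encode zinc finger proteins that act in transcription. Plagl1, also known as Zac1, regulates a network of other imprinted genes and can arrest the cell cycle. It lies on chromosome 10 from 12810497 to 12851500 on the plus strand, with normalized read counts of 2535 and 2244 in wild-type and of 2947 and 2907 in Bmal1 -/-. The wild-type libraries lay farther from each other than the Bmal1 -/- libraries did, and the groups did not overlap. The log2FC was 0.30 (SE 0.05, adjusted p = 7.6e-05), and it lost the call when the variance was not fitted as a trend over the mean (adjusted p = 0.063). RefSeq promoter windows were found for 7 of the 10 genes, and that of Plagl1 is shown because it is the only other one with an E-box (position -182). It also holds the hexamer TGCCGC, the core of the motif that Zfp57 binds when it is methylated, read on the opposite strand (position -90). Both are in capitals in the 250 bases before the start (GRCm38.p6, chr10:13090582-13090831, plus strand).

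Plagl1 promoter: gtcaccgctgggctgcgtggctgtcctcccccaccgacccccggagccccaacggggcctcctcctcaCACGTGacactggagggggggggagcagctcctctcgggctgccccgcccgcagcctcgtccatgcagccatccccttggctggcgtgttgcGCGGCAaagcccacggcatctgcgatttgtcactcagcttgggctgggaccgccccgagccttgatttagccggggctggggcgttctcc

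Peg3, a large zinc finger protein that represses transcription and takes part in p53-dependent cell death, lies on chromosome 7 from 6656603 to 6683132 on the minus strand. Its normalized read counts were 3498 and 3199 in wild-type and 2913 and 2899 in Bmal1 -/-. The difference was the smallest of the 8 that passed, with 86.8% of the wild-type mean and a log2FC of -0.20 (SE 0.05, adjusted p = 0.0012). As for Plagl1, the wild-type libraries lay farther from each other than the Bmal1 -/- libraries did. The lower wild-type library was about as far from the Bmal1 -/- libraries as from the other wild-type library. The call was lost without the filter on low values (adjusted p = 0.062) and without the variance trend (adjusted p = 0.092), whereas edgeR and DESeq2 kept it.

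Among 9 genes tied to either protein, all tested, 2 rose and 5 fell (77.8% called, against 52.6% of all genes tested, median log2FC -0.14). Cdkn1a, the p53 target that halts the cell cycle, fell by 0.34 on the log2 scale. Bax, which opens the mitochondrial membrane and which Peg3 moves to mitochondria upon damage, fell by 0.31, and Traf2, a signalling adaptor to which Peg3 binds, fell by 0.30. Plag1, a relative of Plagl1, rose from 138 and 115 to 213 and 217 (0.77). Adcyap1r1, the receptor of the peptide PACAP and a target of Plagl1, passed 2-fold at values of 12.6 and 9.56 in wild-type and 22.6 and 28.6 in Bmal1 -/- (1.14, adjusted p = 0.008).

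Mest, also called Peg1, encodes a membrane protein of the hydrolase fold that is known from the growth of adipose tissue, and lies on chromosome 6 from 30673547 to 30698457 on the plus strand. Mest was at normalized read counts of 735 and 731 in wild-type and 566 and 558 in Bmal1 -/-, a drop to 76.6% of the wild-type mean. Replicates of each label lay close together and the groups were apart, and the log2FC was -0.38 (SE 0.07, adjusted p = 5.4e-05). Copg2, on the opposite strand, shares 23.0% of the exon bases of Mest. It stood between 1923 and 2010 in the 4 libraries, with a log2FC of -0.03 (adjusted p = 0.66). Of the 3 RefSeq promoter windows of Mest, the pair with 17 CpG each, whose starts nearly coincide, hold 2 Zfp57 hexamers each and no E-box. One is shown as an example of a promoter with the methylation-dependent motif, although within 1 kb of the start annotated in NCBIM37, which is another one, Mest holds 0 hexamers and 18 CpG. In the 250 bases before the start (GRCm38.p6, chr6:30737800-30738049, plus strand) the hexamers are in capitals and read on the opposite strand.

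Mest promoter: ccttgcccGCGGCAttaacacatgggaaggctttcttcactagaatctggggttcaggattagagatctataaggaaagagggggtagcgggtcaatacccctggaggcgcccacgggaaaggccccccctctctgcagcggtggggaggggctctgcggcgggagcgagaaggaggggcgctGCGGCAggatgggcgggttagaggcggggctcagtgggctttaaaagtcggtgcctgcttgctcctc

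Impact, which competes for Gcn1 and so restrains the kinase Gcn2 (Eif2ak4), an amino acid sensor that slows translation, lies on chromosome 18 from 13130761 to 13151457 on the plus strand. Its normalized read counts were 2684 and 2591 in wild-type and 2135 and 2176 in Bmal1 -/-. The groups did not overlap, and the log2FC was -0.29 (SE 0.05, adjusted p = 2.2e-05). In the Gcn2 pathway 16 genes were tested, of which 1 rose and 8 fell (median log2FC -0.11), against 24.0% higher and 28.6% lower over all genes tested. The 9 called in either direction make up 56.2%, near the 52.6% of all genes tested. Gcn2 itself was at 1161 and 1157 in wild-type and at 1124 and 1038 in Bmal1 -/- (adjusted p = 0.15), and Gcn1, listed as Gcn1l1, had a log2FC of -0.01. The largest fall was that of Trib3 (-0.45), a target of the stress factor Atf4, which fell by 0.20 on the log2 scale. Eif2b2 and Eif2b1, subunits of the exchange factor of eIF2, fell by 0.32 and 0.26, and Eif2s2, the beta subunit of eIF2, was the gene that rose (0.24). Asns, the asparagine synthetase that the pathway induces, stood between 21750 and 22460 with a log2FC of -0.01.

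Peg10 and Sgce are neighbours on chromosome 6 that are transcribed away from each other. Peg10 derives from a retrotransposon and is needed for the placenta, and it lies from 4697306 to 4710514 on the plus strand. Sgce encodes epsilon-sarcoglycan, a membrane glycoprotein, and lies from 4624350 to 4697204 on the minus strand. Only 101 bases lie between their annotated starts, and these are shown because both genes start at its ends. It holds 13 CpG, 1 Zfp57 hexamer, in capitals, and no E-box (NCBIM37, chr6:4697205-4697305, plus strand).

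Sgce to Peg10 interval: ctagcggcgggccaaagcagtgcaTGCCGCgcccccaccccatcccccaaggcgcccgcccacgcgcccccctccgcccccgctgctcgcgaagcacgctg

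On either side of this stretch the levels differed widely. Peg10 had normalized read counts of 296 and 260 in wild-type and of 205 and 205 in Bmal1 -/-, a log2FC of -0.44 (SE 0.10, adjusted p = 0.0013). The Bmal1 -/- libraries were both below the lower wild-type library. Sgce was at 11.6 and 20.2 in wild-type and at 9.39 and 10.5 in Bmal1 -/-, which rests on 11, 19, 10 and 11 reads. The wild-type replicates were farther apart than the lower of them was from Bmal1 -/-, and the log2FC of -0.58 had a 95% interval from -1.41 to 0.25 (adjusted p = 0.23). It was -0.95 when wild-type replicate 1 was left out and -0.20 when replicate 2 was. A difference of the size seen for Peg10 lies within the interval of Sgce, and a difference of that size was not detectable at this depth. With quantile normalization, Sgce passed both thresholds (-1.04, adjusted p = 0.043).

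Of 13 genes of the sarcoglycan and dystrophin complex, 8 were tested, of which 4 rose and 2 fell (median log2FC 0.17), against 24.0% higher and 28.6% lower over all genes tested. Sgcb, the sarcoglycan with the highest values, was between 70.6 and 93.8 (adjusted p = 0.48). The dystrophin-associated syntrophins Sntb1 (0.51) and Sntb2 (0.49) and the dystroglycan gene Dag1 (0.37) rose, utrophin (Utrn) fell by 0.44 on the log2 scale, and Dtna, the alpha-dystrobrevin gene, fell from 45.3 and 34.0 to 14.1 and 11.4 (-1.55). Among the relatives of Peg10 that derive from retrotransposon Gag genes, 8 were tested and 4 fell (median log2FC -0.46), a share near the 52.6% called over all genes tested. The count that rose was 0 in limma, edgeR and DESeq2, also at an unadjusted p-value under 0.05, against 24.0% higher over all genes tested in limma. Rtl1 fell from 17.9 and 20.2 to 4.70 and 5.72 (-1.69) and Cxx1b from 18.96 and 29.74 to 15.03 and 6.68 (-1.16), the latter with near-identical copies beside it among which reads may be split. Pnma2 fell by 0.50 and Ldoc1l by 0.43 on the log2 scale.

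Nnat encodes neuronatin, a small proteolipid of the endoplasmic reticulum found in developing brain. It lies on chromosome 2 from 157385814 to 157388258 on the plus strand, within an intron of Blcap, which runs on the opposite strand. Normalized read counts were 33.7 and 39.3 in wild-type and 38.5 and 30.5 in Bmal1 -/-. The groups overlapped, and the log2FC was -0.08 with a 95% interval from -0.59 to 0.42 (adjusted p = 0.79). Its host Blcap was at 729 and 665 in wild-type and at 645 and 613 in Bmal1 -/- (log2FC -0.15, adjusted p = 0.082).

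**Figure D2:**
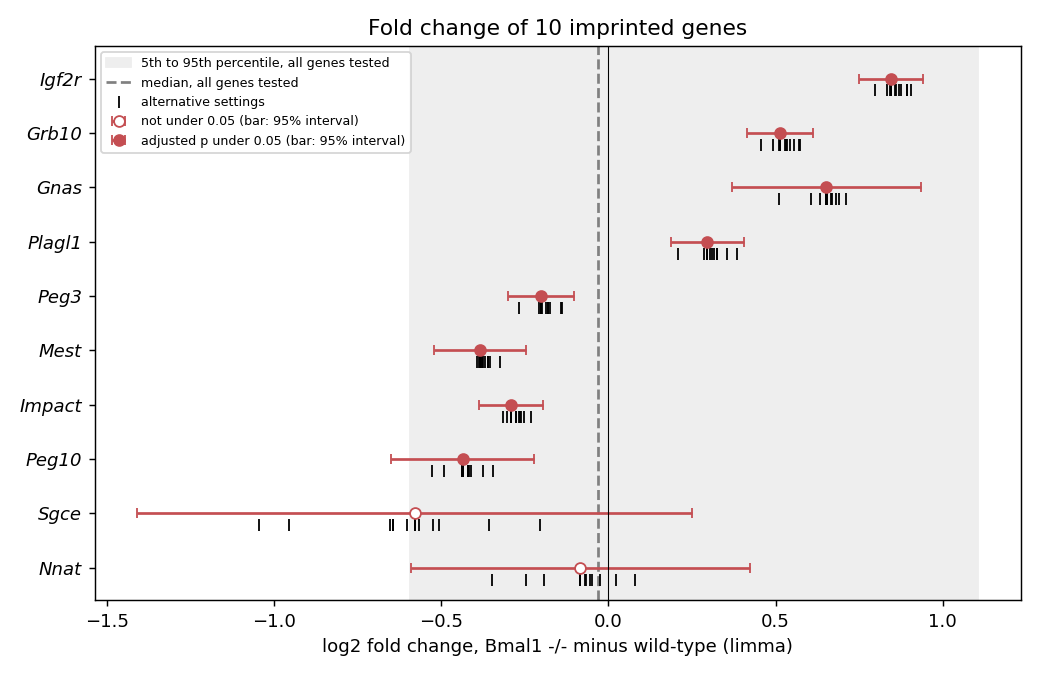
Log2FCs (x axis, Bmal1 -/- minus wild-type, on log2(value + 1)) of the 10 imprinted genes with their 95% intervals from limma, beside the range from the 5th to the 95th percentile of all genes tested (grey) and the values under the alternative settings (ticks). Igf2r is farthest to the right at 0.85, and the intervals of Sgce and Nnat include 0.

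Levels were compared between genes as normalized reads per kilobase of merged exon, since longer transcripts give more reads. Impact had the highest level in every library, with 782 and 755 per kilobase in wild-type and 622 and 634 in Bmal1 -/-, and Plagl1 came next in each. Grb10, Peg3 and Igf2r followed in wild-type at means of 267, 251 and 211 per kilobase, and the ranges of Grb10 and Peg3 overlapped there. In Bmal1 -/- Igf2r was at 382 and 376 per kilobase and Grb10 at 386 and 376, also with overlapping ranges, and both were above Peg3 at 219 and 218. Igf2r thus moved from rank 5 in both wild-type libraries to ranks 4 and 3 in Bmal1 -/-, and Peg3 from ranks 3 and 4 to rank 5. Mest was sixth in all libraries with means of 186 and 143 per kilobase. A gap separated these 6 from Peg10 (41.8 and 30.8), Nnat (20.0 and 18.9), Gnas (8.37 and 13.2) and Sgce (5.15 and 3.22), whose order was the same in each library. Merged exons include those of transcripts that may not be used in these cells, which lowers the level of a gene with many alternative exons such as Gnas.

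**Figure D3:**
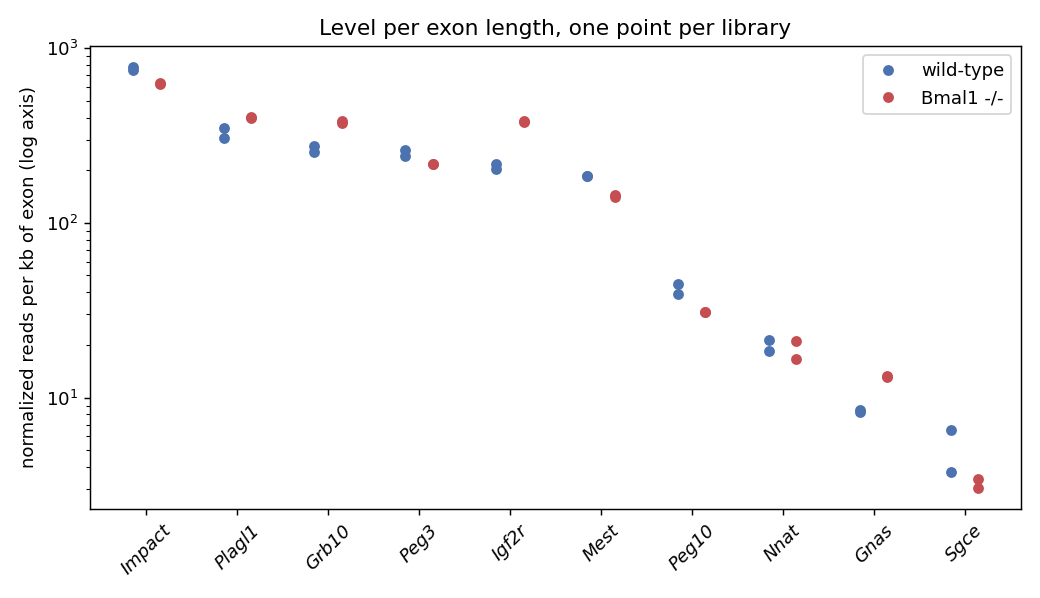
Normalized reads per kilobase of merged exon (y axis, log scale) of the 10 imprinted genes, ordered by the wild-type mean, with a point for each wild-type (blue) and Bmal1 -/- (red) library. Igf2r rose from 218 and 204 to 382 and 376, where its points overlap those of Grb10.

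Other transcripts of the same imprinted loci were examined next. Of 25 such genes and non-coding RNAs, 12 were tested, and 1 rose and 1 fell (16.7% called, against 52.6% over all genes tested), with a median log2FC of -0.04. Airn, the antisense RNA that silences the paternal Igf2r in differentiated tissues, had 0 reads in both wild-type libraries and 3 and 5 reads in Bmal1 -/-, at or just above the floor of 3 reads. It starts within Igf2r on the other strand and shares 0 exon bases with it. Slc22a2 and Slc22a3, which Airn silences in placenta, had values of at most 1.05, and Mas1 of at most 6.32. At the Peg3 locus Zim1 was at 10.5 and 12.8 in wild-type and at 16.9 and 16.2 in Bmal1 -/-, and Usp29 at 16.9 and 17.0 and at 22.6 and 21.9 respectively, with adjusted p-values of 0.28 and 0.33. Near Grb10, Ddc had a log2FC of -0.18 (adjusted p = 0.056) and Cobl of -0.01 (adjusted p = 0.84). Klf14, the neighbour of Mest, was between 2.11 and 8.58.

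Next to Peg10 and Sgce the changes went both ways. Ppp1r9a, a neurabin that binds actin, rose from 549 and 501 to 714 and 814 (log2FC 0.54, adjusted p = 5e-06), while Pon2, a paraoxonase, fell from 54.8 and 62.7 to 35.7 and 30.5 (-0.81, adjusted p = 0.0038). Casd1, Asb4 and Pon3 had log2FCs of -0.21, -0.34 and 0.01 and did not pass. Calcr and Tfpi2 were at values of at most 2.13.

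The wider surroundings were described by the median log2FC of the genes tested within 1 Mb. Around Igf2r it was 0.03 over 15 genes, of which 4 rose and 7 fell, and within 0.5 Mb it was -0.30 over 9 genes, of which 1 rose and 7 fell. Agpat4, singled out after its value was seen, fell by 1.06 on the log2 scale there, and Mrpl18, Tcp1 and Sod2 fell by 0.42, 0.28 and 0.27, beside the rise of Igf2r. Around Grb10 5 genes were tested within 1 Mb, and 0 passed in limma, edgeR or DESeq2, with 1 (Ddc) at an unadjusted p-value under 0.05 in limma (median -0.02). Around Peg3 the median was 0.07 over 18 genes, with 4 higher, among them Aurkc (1.20), also singled out afterwards, and 2 lower. Around Mest it was -0.03 over 15 genes, with 3 higher and 3 lower, and Tsga14, the tested gene whose start is nearest, fell by 0.29 on the log2 scale. The medians around the other 6 genes lay between -0.15 and 0.22, and those of the chromosomes that carry the 10 genes between -0.09 and 0.00.

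**Figure D4:**
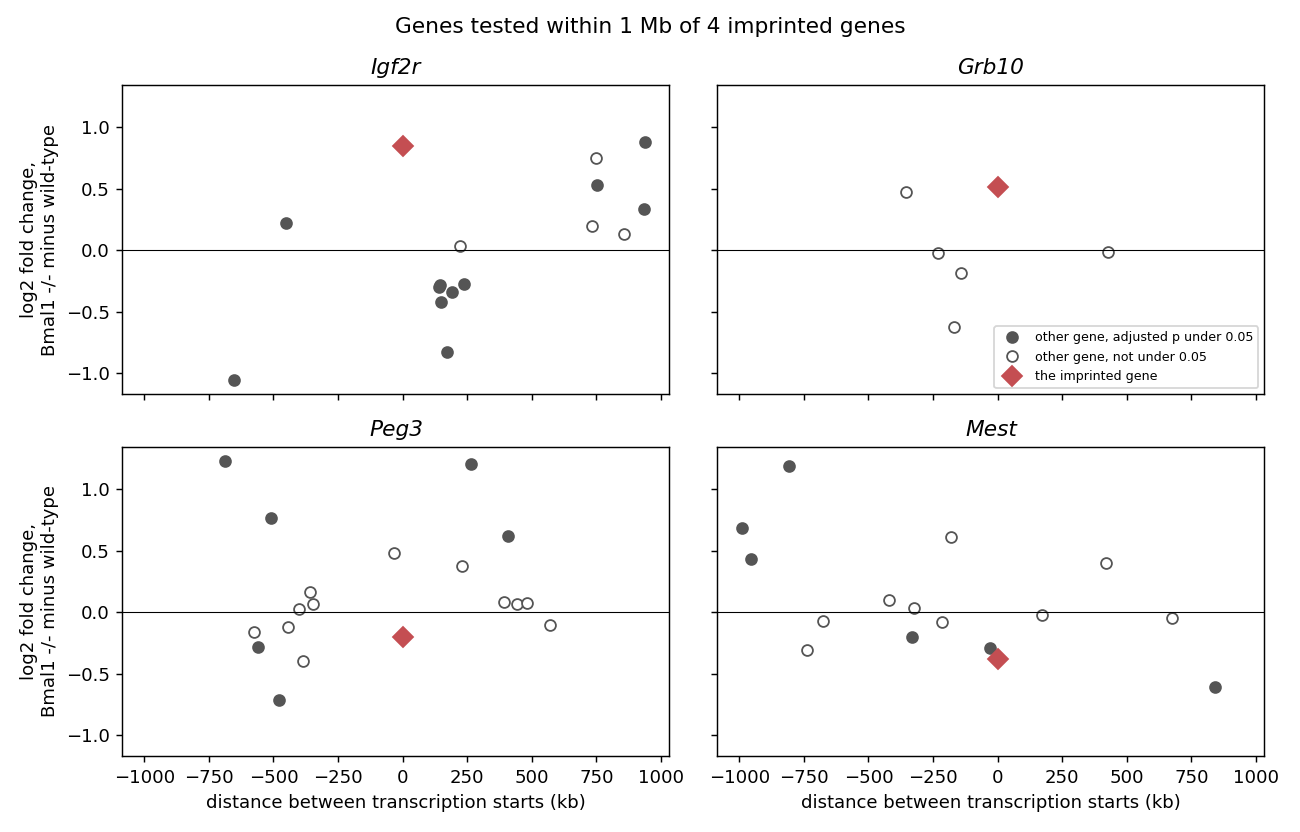
Log2FCs (y axis) of genes tested within 1 Mb of Igf2r, Grb10, Peg3 and Mest against the distance between transcription starts in kilobases (x axis, positive towards higher coordinates). Filled circles passed an adjusted p-value under 0.05 in limma, open circles did not, and the red diamond is the imprinted gene. Igf2r, at 0.85, stands above its nearest neighbours, of which Pnldc1, Tcp1, Mrpl18, Acat3, Acat2 and Sod2 were lower in Bmal1 -/-.

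The proteins that keep, write or remove DNA methylation at imprints were also examined. Of 24 listed genes 21 were tested, and 11 rose and 4 fell (71.4% called, against 52.6% of all genes tested, median log2FC 0.10). Zfp57 was between 14260 and 14920 and Trim28 between 37150 and 39550 in the 4 libraries, and neither passed (log2FCs 0.03 and -0.05, adjusted p = 0.53 and 0.31). Zfp445, the other zinc finger protein known to protect imprints, rose from 1081 and 1036 to 1573 and 1581 (0.58). Dppa3, which protects the maternal genome from demethylation in the zygote, fell from 1148 and 1157 to 601 and 590 (-0.95). The enzymes that oxidise methylated cytosine rose, Tet3 from 159 and 159 to 319 and 303 (0.96), Tet2 from 5000 and 4378 to 7376 and 7287 (0.65) and Tet1 by a log2FC of 0.32. Dnmt3l, the cofactor of de novo methylation, rose from 389 and 321 to 629 and 623 (0.82) and Dnmt3a by 0.59, while Dnmt3b fell by 0.26 on the log2 scale. Dnmt1, which copies methylation after replication, was at 10880 and 10390 in wild-type and at 10050 and 9886 in Bmal1 -/- and did not pass (-0.09, adjusted p rounding to 0.05). DNA methylation was not measured in these samples.

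Imprinted genes of other loci were set beside these 10 genes. In the imprinted regions of chromosome 12, Snrpn and H19, 19 genes were tested, 6 rose and 10 fell, which is 84.2% called against 52.6% of all genes tested, and 6 of them passed 2-fold, a size reached by 7.21% of all genes tested. Dio3 rose by 1.53 on the log2 scale, whereas Rtl1 (-1.69) and the non-coding RNAs Mirg (-1.33), Rian (-0.93) and Meg3 (-0.92) of the same region fell. Peg12 (1.03) and Magel2 (2.27, from 1.05 and 6.37, which are 1 and 6 reads, to 23.48 and 13.35) rose in the region of Snrpn, and Cdkn1c, the growth-restraining inhibitor of cyclin-dependent kinases, fell by 1.09 and Phlda2 by 0.92. A further list, called single imprinted loci, held other imprinted genes, several of which lie next to or within another gene of the list. It also held Dhcr7, which starts at 151009050 on chromosome 7, not far beyond Phlda2 of the H19 region, which ends at 150688446. Of this list 13 were tested, 3 rose and 5 fell, which is 61.5% called against 52.6% of all genes tested. The count past 2-fold was 0 in limma, edgeR and DESeq2, at an adjusted or an unadjusted p-value under 0.05, against 7.21% of all genes tested. The changes of largest size that passed were those of Zfp64 (-0.35), Dhcr7 (-0.28), H13 (-0.26) and Herc3 (0.20).

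**Figure D5:**
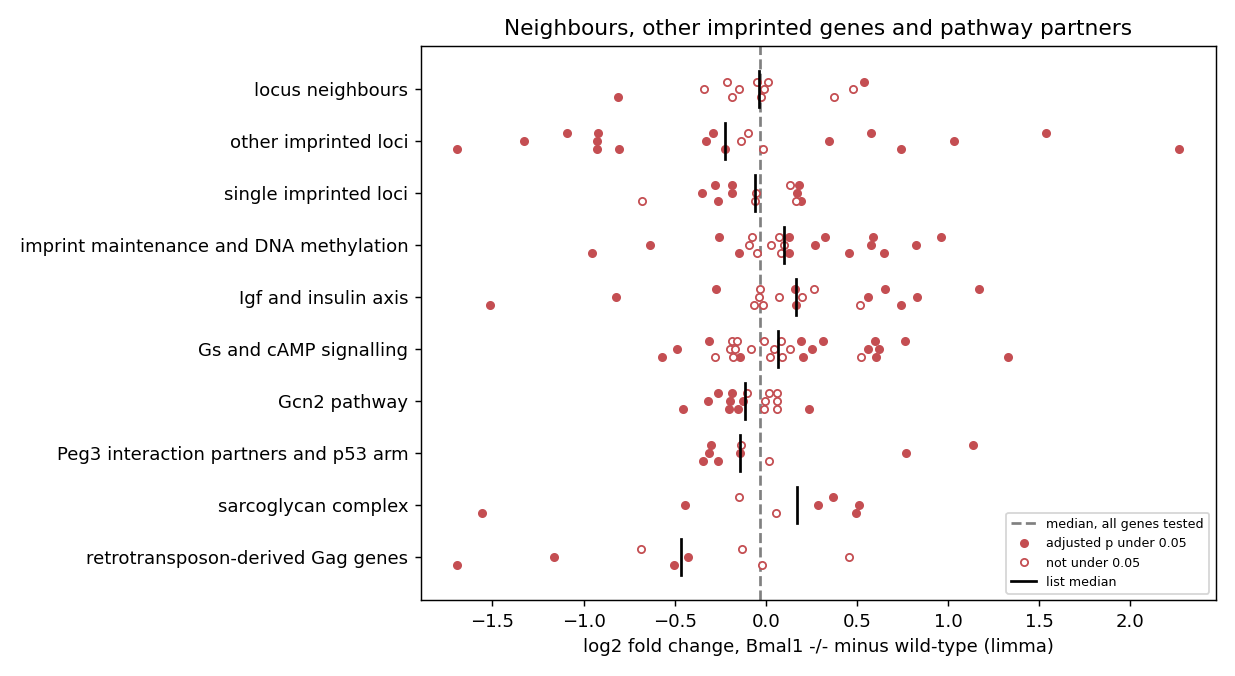
Log2FCs (x axis, Bmal1 -/- minus wild-type) of the tested genes of 10 lists (rows), filled where the adjusted p-value in limma was under 0.05, with the list median (black bar) and the median of all genes tested (dashed line, -0.03). The other imprinted loci reach from -1.69 to 2.27, while the single imprinted loci and the Gcn2 pathway stay within 2-fold.

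The genes whose pattern over the 4 libraries was most like that of 4 of the imprinted genes were found by the Euclidean distance of log2(value + 1) after centring each gene on its mean. For Igf2r these were Eml5 (distance 0.03, with 572, 543, 989 and 989 in wild-type replicates 1 and 2 and Bmal1 -/- replicates 1 and 2) and A930001N09Rik (0.04). For Grb10 they were Pttg1 (0.01, with 1978, 2132, 2981 and 2896 in the same order) and Lmo1 (0.03). For Peg3 Usp20 (0.01) was the closest. For Mest they were Cc2d1a (0.01, with 1001, 1001, 768 and 758) and Psma7 (0.01), a proteasome subunit. With 4 libraries many genes come close to any pattern, and the likeness is a description.

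The promoter windows of 7 of the 10 genes were found among the RefSeq promoters, and windows for Peg10, Sgce and Impact were not used here. In these windows of 300 bases, the E-box CACGTG, which reads the same on both strands, was found for Igf2r and Plagl1 and for none of Peg3, Mest, Grb10, Nnat and Gnas. It occurs in 7.15% of all 32851 windows. TGCCGC, searched on both strands, was found for Mest, Grb10, Plagl1 and Nnat, and in 11.6% of all windows, and no match of one motif overlapped a match of the other. Within 1 kb on either side of the annotated start in NCBIM37, the E-box was found for 4 of the 10 genes (Igf2r with 2 matches, and Grb10, Plagl1 and Impact with 1 each), against 27.8% of 22380 protein-coding genes. TGCCGC was found there for 8 of the 10, with 6 matches each at Peg3, Plagl1 and Nnat, against 43.4%, and the pair without it were Mest and Grb10, which hold it in RefSeq windows. CpG dinucleotides numbered 34 in the promoter window of Igf2r, 26 in that of Plagl1 and 13 in that of Peg3, beside a median of 7 over all windows. Of the genes with an E-box within 1 kb, Igf2r, Grb10 and Plagl1 were higher and Impact was lower in Bmal1 -/-. A match describes these letters only and is not a binding site.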

How the data were processed

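mRNA of 4 cultures was sequenced from stranded libraries. The authors aligned the reads to mm9 (per the labels with STAR 2.5.2b, after cutadapt 1.9.1), counted reads per gene and deposited 1 table of TMM-normalized values, a signal obtained by dividing each count by a library factor. The counting tool and its strand setting are not given in the sources used here. Values of each column were whole multiples of 1 number within 0.01 of a read, which gave whole reads for 100% of the values. Depth is given per library in the report, and floors cover counting error only. Replicates are described as biological. For p-values and intervals, limma combines the spread of each gene between these libraries with a variance trend over all genes tested (18.1 prior degrees of freedom). With 2 libraries per group they rest more on that trend than on the spread of the gene itself.

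Tests used limma 3.58.1 (R 4.3.3, lmFit and eBayes with a trend) on log2(value + 1) for genes whose mean reached 10, which understates the change of low genes. P-values were adjusted by Benjamini-Hochberg over all 14510 genes. The calls were an adjusted p-value under 0.05, with or without a change of more than 2-fold. Alternatives were other filters, pseudocounts and scalings, no trend, a replicate block, each library left out, and edgeR 4.0.16 and DESeq2 1.42.0 on the whole reads. Positions come from the GENCODE annotation of NCBIM37 (mm9), which holds all 37310 identifiers, and promoters from RefSeq (GRCm38.p6). Tables and figures were made with Python 3.11.15, pandas 2.3.3 and matplotlib 3.10.9.

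The 10 genes and all lists were chosen with earlier results of these data known. Genes named are the 10, detected genes of their loci, the listed genes past 2-fold and up to 4 others per list with the largest change that passed, the markers, and the 2 genes of most similar pattern. M6pr, Grb14, Igfbp2, Gng5, Gnb5, Gnb2, Gnb1, Gng12, Gnb4, Prkaca, Eif2ak4, Gcn1l1, Atf4, Asns, Sgcb, Zfp57, Trim28, Zfp445, Tet1, Dnmt3a, Dnmt3b, Dnmt1, AF085738 and the genes named within 1 Mb were added for their roles or positions after their values were seen. Some items are not reported here.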

Additional observations from a re-analysis of the deposited data

How the results depend on the processing

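Over 158 values of the 10 genes under alternative settings, 152 kept their direction and their side of the threshold. Peg3 kept its log2 fold change of -0.20 but lost the call without the filter on low values (adjusted p = 0.062) and without the trend (adjusted p = 0.092), and Plagl1 (0.30) lost it without the trend (adjusted p = 0.063), all in limma. With quantile normalization Sgce passed (-1.04), so that 1 of the 10 genes, against 0, was past 2-fold. The cause was not tested. Sgce lay between -0.95 and -0.20 and Nnat between -0.247 and 0.0792 with each library left out, and its sign turned when wild-type replicate 2 (0.0238) or the second Bmal1 -/- library (0.0792) was left out. Sgce and Nnat had no value at a minimum mean of 100. Over all genes, 5060 were called without the trend, against 7639, and 318 were past 2-fold at that minimum, against 1046, in a smaller set of genes. With the replicate block, 8 of the 10 genes passed and 0 were past 2-fold, as without it, and 7949 of all genes were called. The deviations of same-numbered libraries from their group means correlated at -0.02 over the genes tested. With 2 libraries per group the second pair mirrors the first, so this cannot tell whether same-numbered libraries share an experiment. Around Igf2r and Plagl1 the median log2 fold change was -0.30 and -0.07 within 0.5 Mb, against 0.03 and 0.22 within 1 Mb. Depth limits Sgce and Nnat, with at most 19 and 41 reads per library.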
